A study of Mus musculus with 8 samples.

Results

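Integrins are receptors that hold cells to the extracellular matrix and to other cells, and laminins are matrix proteins that many of them bind. The genes described here are all protein-coding genes of the deposited table whose names mark them as an integrin α or β subunit or a laminin α, β or γ subunit. They were taken by name alone, and they number 37 of 27534 genes, or of 17059 protein-coding genes. Values and counts are given for 36 of them, of which 18 encode integrin α subunits, 8 integrin β subunits and 10 laminin chains. In the 8 libraries 30 of the 36 had enough reads to be tested.

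The material was pancreatic islets of C57BL/6J mice, cultured for 72 h in RPMI 1640 with fetal bovine serum and HEPES. The high glucose group was kept at 20 mM glucose and the low glucose group at 7.5 mM, with 4 libraries each. No allele or other agent is labelled for either group. Whole islets hold several cell types, and nothing says whether the libraries came from separate animals or cultures, so that p-values measure the spread between these libraries, which may be technical.

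An integrin is a pair of one α and one β subunit, and the pair sets what it binds. The αV and α5 subunits serve receptors for fibronectin, vitronectin and other proteins with an Arg-Gly-Asp motif. The α3, α6 and α7 subunits serve laminin receptors, and α1, α2, α10 and α11 serve collagen receptors. A laminin is a trimer of one α, one β and one γ chain and forms the core sheet of basement membranes. In islets, laminin of the capillary basement membrane meets integrins of the endocrine cells, and this contact is known to support insulin secretion and β-cell survival.

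Libraries held 20516328 to 24905499 counts in high glucose and 19543045 to 24949515 counts in low glucose. At this depth 3 counts correspond to 0.114 to 0.161 CPM, counts scaled to library size, a floor that covers counting error only. The most abundant hormone transcript, Ins2, stood at 121000 ± 18700 FPKM in high glucose and 114000 ± 23800 FPKM in low glucose (SD, n = 4 each). Exocrine transcripts were present too, with the acinar protease gene Ctrb1 at 4840 ± 3660 FPKM in high glucose and 2930 ± 2110 FPKM in low glucose. FPKM, which divides fragments by gene length and library size, is the authors' per-length level and is used here for every comparison between genes. CPM, scaled by TMM, is used for a gene between libraries. Tests are edgeR's quasi-likelihood test, which does not use the replicate number unless a replicate block is named. Benjamini-Hochberg adjustment is over 15442 genes, and "passed" means an adjusted p under 0.05.

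Few of these subunits changed in high glucose. Itgad, Itgav and Itgb1 rose, and Itgb8 and Itga3 fell, while 25 subunits did not pass. The reads counted for Itgad may be partly or wholly those of antisense genes that also rose, as described below. Its call is therefore one of the listed row and not of a known αD transcript. The 5 that passed are 16.7% of the 30 tested, against 25.0% of all genes tested. By direction, 3 rose where 13.1% of all genes rose, and 2 fell where 11.9% of all genes fell, and the share that passed does not stand above that of the table as a whole. At an unadjusted p under 0.05 there were 6 subunits higher and 3 lower. The subunits' median log2 fold change was 0.2, with 23 above 0 and 7 below, beside -0.01 over all genes. Scaling by library size alone gave 37.8% of the called genes as higher in place of 52.5%, and the subunits' median was then 0.13. With the replicate number as a block, 9 subunits passed (30.0%), 6 higher and 3 lower, against 37.4% of all genes. With 1 library left out, 3 passed without replicate 1, 3 or 4 of either group, 4 without high glucose replicate 2 and 7 without low glucose replicate 2. In bulk islets, fewer cells of a type and less RNA per cell cannot be told apart, and this holds for each value that follows.

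Counting libraries in place of p-values gave a like picture. In 4 subunits (Itgad, Itgav, Itgb1 and Itga7) every high glucose library lay above every low glucose library in CPM. In Itga3 every high glucose library lay below. Together these 5 subunits compare with 27.3% of all genes tested whose groups did not overlap.

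**Figure D1:**
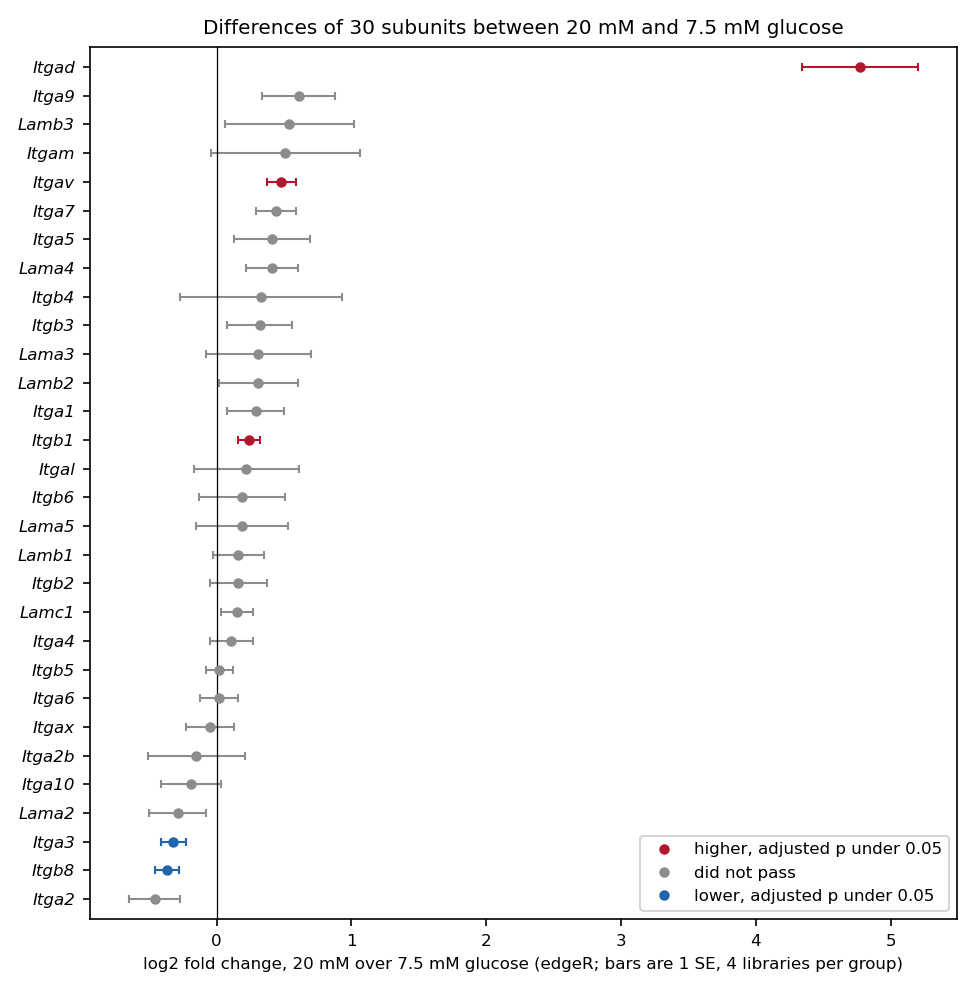
Log2 fold change of 30 subunits, high (20 mM) over low (7.5 mM) glucose, with bars of 1 SE from edgeR and 4 libraries per group. Red marks the 3 that rose and blue the 2 that fell at an adjusted p under 0.05. Itgad at 4.77 stands far from the others, which lie between -0.46 and 0.61, and its reads may be those of antisense genes.

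The abundant subunits set the scale. By FPKM the highest integrin transcript was Itgb1, which encodes the β1 chain shared by most matrix receptors, at 65.5 ± 3.39 in high glucose and 54.7 ± 3.89 in low glucose. Itgb5, an αV partner, stood at 18.7 ± 1.05 in high glucose and 18.2 ± 2.71 in low glucose, and Itgav at 20.1 ± 1.78 in high glucose and 14.2 ± 2.05 in low glucose, so that Itgav had the higher mean of the pair in high glucose and Itgb5 in low glucose. Among laminin chains Lamc1, the γ1 chain of most laminins, was the highest at 4.79 ± 0.779 FPKM in high glucose and 4.24 ± 0.387 FPKM in low glucose. At the low end, Itga8, Itga11, Itgae, Itgb7, Lama1 and Lamc3 averaged under 0.2 FPKM in both groups, and these 6 subunits were not tested.

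**Figure D2:**
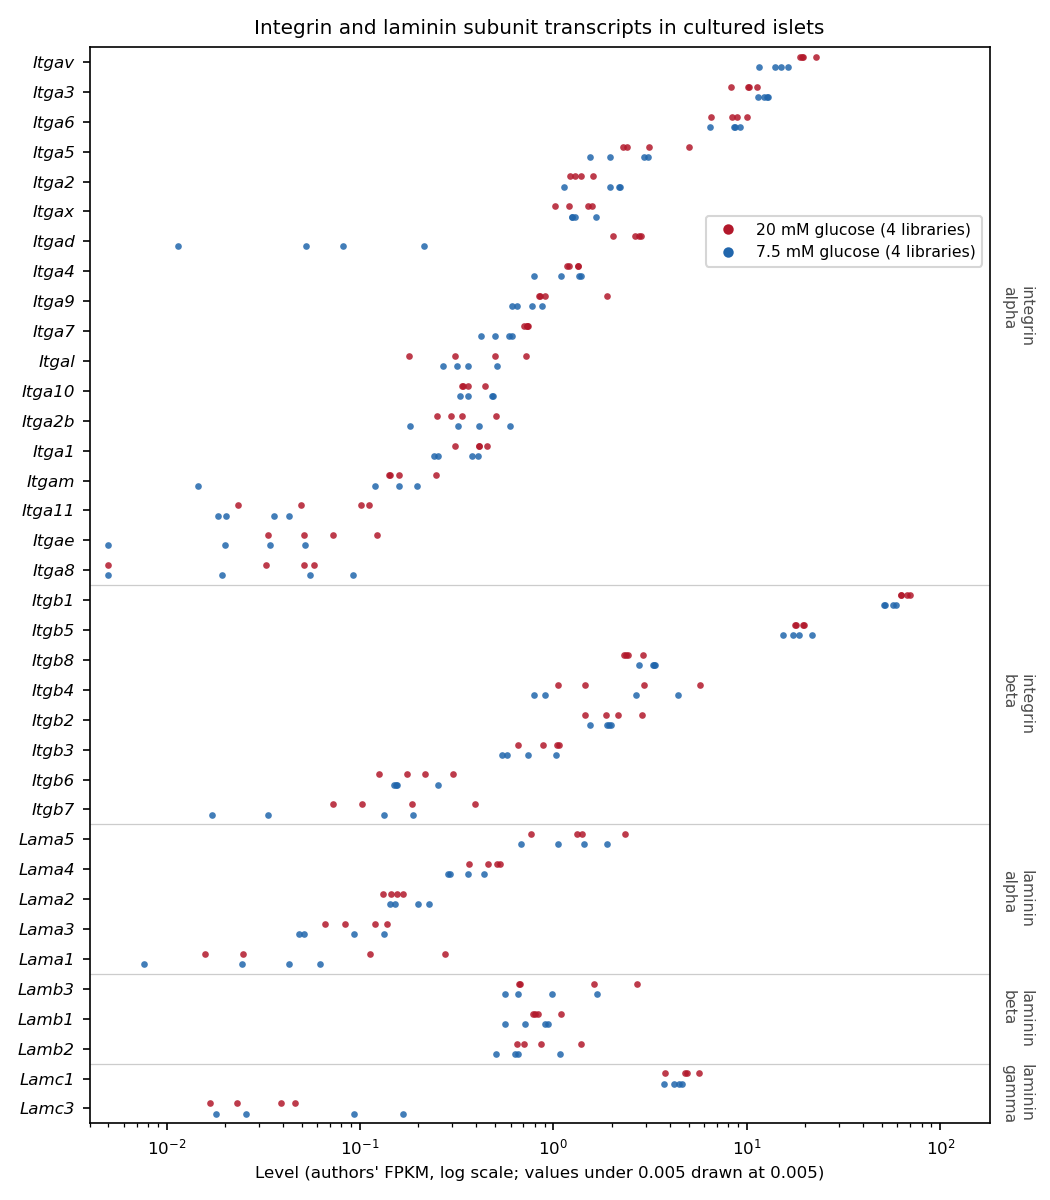
Authors' FPKM of 36 subunits in each of the 8 libraries, on a log axis, with high glucose (red) drawn above low glucose (blue) for each gene. Itgb1 leads the β subunits, Itgav the α subunits and Lamc1 the laminin chains. Itgad, whose reads may be those of antisense genes, is the one gene whose group means lie more than 10-fold apart.

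Itgav, the αV subunit of the Arg-Gly-Asp receptors, rose 1.39-fold. It lies at chr2:83724397-83806916 on the + strand (GRCm38, as do the positions that follow). Its level was 213, 206, 245 and 209 CPM in the high glucose libraries, against 155, 128, 181 and 163 CPM in the low glucose libraries. The lowest high glucose library lay above the highest low glucose library. This was a log2 fold change of 0.48 ± 0.11 (SE; edgeR adjusted p = 0.0085), and the call held with each of the 8 libraries left out in turn (adjusted p up to 0.0287). Itgav shares 634 exon bases, 5.9% of its own, with the antisense gene Gm13684, which had between 0 and 14 counts in any library.

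Itgb1 (chr8:128685654-128733200, + strand) rose 1.18-fold by a narrow margin. It had 287, 261, 256 and 278 CPM in the high glucose libraries, against 214, 247, 218 and 236 CPM in the low glucose libraries, with no overlap. Its log2 fold change was 0.24 ± 0.08 (edgeR adjusted p = 0.0413). It did not pass with library size alone (0.128), without the filter on low counts (0.0825), or in 7 of the 8 edgeR fits that left out 1 library, where the adjusted p lay between 0.0552 and 0.134. The exception was the fit without low glucose replicate 2, with an edgeR adjusted p of 0.0126.

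The RefSeq promoters of these 2 genes are shown because both rose and their RefSeq starts are the starts of the listed genes. Each window runs from 250 bases before the start to 50 after it (GRCm38.p6), 5′ to 3′ on the gene's strand. Capitals mark GGGCGG or its reverse complement CCGCCC, the core of a GC box. The Itgav window is chr2:83724147-83724446 on the + strand and the Itgb1 window is chr8:128685404-128685703 on the + strand.
Itgav: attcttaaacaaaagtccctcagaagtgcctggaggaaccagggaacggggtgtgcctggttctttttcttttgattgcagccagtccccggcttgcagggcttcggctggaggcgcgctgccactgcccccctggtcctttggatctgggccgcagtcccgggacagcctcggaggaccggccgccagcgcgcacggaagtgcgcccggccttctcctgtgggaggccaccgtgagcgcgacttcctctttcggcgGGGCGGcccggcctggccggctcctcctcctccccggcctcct
Itgb1: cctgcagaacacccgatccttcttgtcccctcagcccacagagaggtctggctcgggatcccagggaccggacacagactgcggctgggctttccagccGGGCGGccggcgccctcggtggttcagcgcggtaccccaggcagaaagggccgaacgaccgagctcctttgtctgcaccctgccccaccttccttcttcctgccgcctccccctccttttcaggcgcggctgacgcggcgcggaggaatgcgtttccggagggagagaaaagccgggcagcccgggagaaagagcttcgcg
Both hold 1 match and have 67.3% G+C, with 24 CG dinucleotides in the Itgav window and 27 in that of Itgb1. Across all 32851 RefSeq mouse promoters of the same length, 35.7% hold a match on either strand, and the medians are 52.7% G+C and 7 CG dinucleotides. Entries were found for 23 of the 36 subunits, and 11 of these 23 genes hold at least 1 match. Itga3, which fell, holds 3 matches in the more upstream of its 2 entries, and Itgb8, which also fell, holds 0. A further 3 motifs were searched on both strands. The E-box core CACGTG occurs in 7.15% of all promoters, the TATA box as TATAAA in 13.6%, and the AP-1 motif TGANTCA in 7.81%. The Itgav and Itgb1 windows hold none of them.

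The other Arg-Gly-Asp subunits did not pass. Itga5, the classical fibronectin receptor chain, had 25.0, 12.1, 15.5 and 11.4 CPM in the high glucose libraries, against 7.85, 15, 15.7 and 9.79 CPM in the low glucose libraries (log2 fold change 0.41 ± 0.28, edgeR adjusted p = 0.334). The groups overlapped, and high glucose replicate 1 was the highest of the 8 libraries. Itga2b, the platelet αIIb chain, averaged 1.91 ± 0.621 CPM in high glucose and 2.11 ± 0.962 CPM in low glucose. Of 10 platelet and erythroid markers 3 had a row and 2 were tested, and their summed level was 2.5 to 3.85 CPM in high glucose and 0.864 to 1.39 CPM in low glucose. Their part in the level of Itga2b was not tested. Itga8, an integrin of mesenchymal cells, had 9, 0, 8 and 6 counts in the high glucose libraries, against 11, 13, 0 and 3 counts in the low glucose libraries.

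Among the laminin receptor subunits Itga3 fell and Itga6 did not pass. Itga3 (chr11:95044474-95076801, − strand), whose α3β1 receptor prefers laminins with the α5 or α3 chain, had 58.6, 48.2, 59.0 and 65.2 CPM in the high glucose libraries, against 72.2, 66.8, 74.7 and 74.2 CPM in the low glucose libraries. All 4 high glucose libraries lay below all 4 low glucose libraries. The log2 fold change was -0.32 ± 0.09 (edgeR adjusted p = 0.028), a 1.25-fold fall. The call was lost in 5 of the 8 fits that left out 1 library, namely those without replicate 1 or 3 of high glucose and without replicate 1, 3 or 4 of low glucose, where the edgeR adjusted p lay between 0.0581 and 0.0751.

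Itga6, the chain of the α6β1 and α6β4 laminin receptors, had 80.9, 59.9, 76.0 and 91.1 CPM in the high glucose libraries, against 80.5, 59.6, 79.4 and 84.7 CPM in the low glucose libraries. Its log2 fold change was 0.02 ± 0.14 (edgeR adjusted p = 0.945), and libraries of the same number had close values in both groups. Itga7, the laminin receptor chain best known from muscle, stood at 6.01, 6.08, 5.89 and 5.78 CPM in the high glucose libraries, against 4.89, 5.09, 3.5 and 4.08 CPM in the low glucose libraries. The 2 groups did not overlap, but the difference missed the threshold (log2 fold change 0.44 ± 0.15, edgeR adjusted p = 0.0633) and passed with the replicate block (adjusted p = 0.042).

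Itgav thus moved up and Itga3 down within the α subunits. By FPKM, Itgav made up 35.8, 41.0, 41.5 and 36.6% of the summed α subunits in high glucose, against 31.7, 30.0, 33.3 and 32.2% in low glucose. Itga3 made up 18.5, 18, 18.8 and 21.4% with high glucose, against 27.9, 29.6, 25.9 and 27.6% in low glucose. The ratio of Itgav to Itga3 was 2.03 ± 0.26 in high glucose and 1.15 ± 0.112 in low glucose (SD, n = 4 each). Neither share overlapped between the groups. The ratio did not overlap either, but this follows from the separate groups of Itgav and of Itga3 in FPKM and adds nothing to them. The summed α subunits include Itgad, at 4.98 ± 0.957% in high glucose and 0.191 ± 0.175% in low glucose. A larger Itgad part lowers the shares of the other subunits, and its reads may be partly those of antisense genes. These shares are descriptions with no test, and they use the listed length of each gene.

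Of the collagen receptor subunits none passed in either direction, with 1 of the 3 tested at an unadjusted p under 0.05 and 1 passing with the replicate block. Itga2, the α2 chain of epithelia and platelets, had 9.33, 8.84, 11.5 and 10.0 CPM in the high glucose libraries, against 14.4, 8.3, 15.9 and 15.9 CPM in the low glucose libraries. Low glucose replicate 2 lay below all others, and the other 3 low glucose libraries lay above all of high glucose. The log2 fold change was -0.46 ± 0.19 (edgeR adjusted p = 0.112), and it passed with the replicate block (adjusted p = 0.0199) and without low glucose replicate 2 (adjusted p = 0.00227). Itga1 averaged 7.48 ± 1.14 CPM in high glucose and 6.11 ± 1.68 CPM in low glucose. Itga10 averaged 1.94 ± 0.274 CPM in high glucose and 2.21 ± 0.448 CPM in low glucose, with 33.5% of its exon bases shared with the same-strand gene Gm42957, so that its value is uncertain. Itga11, a fibroblast collagen receptor, had 12, 5, 11 and 3 counts in the high glucose libraries, against 6, 2, 4 and 2 counts in the low glucose libraries.

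Itga4 and Itga9, whose products bind fibronectin segments, osteopontin and the endothelial ligand VCAM1, did not pass. Itga4 averaged 17.8 ± 1.12 CPM in high glucose and 16.5 ± 3.98 CPM in low glucose. It shares 8.04% of its exon bases with Cerkl on the opposite strand. Itga9 had 14.8, 6.65, 6.98 and 6.55 CPM in the high glucose libraries, against 5.12, 6.11, 6.91 and 4.75 CPM in the low glucose libraries (log2 fold change 0.61 ± 0.27, edgeR adjusted p = 0.134). High glucose replicate 1 stood apart, and without it the log2 fold change was 0.23 (edgeR adjusted p = 0.374).

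Itgad, the αD subunit that pairs with β2 on macrophages, had the greatest rise of the 30 subunits. It had 9.29, 12.7, 12.8 and 12 CPM in the high glucose libraries, against 0.379, 0.0536, 0.994 and 0.24 CPM in the low glucose libraries. In counts this was 193, 245, 271 and 297 in high glucose, against 10, 1, 21 and 5 in low glucose. Every high glucose library was far above every low glucose library, and low glucose replicate 2 lay under its floor of 3 counts, 0.161 CPM. The log2 fold change was 4.77 ± 0.43 (27.3-fold, edgeR adjusted p = 3.77e-05), and it stayed between 4.45 and 5.57 with each library left out in turn. Reads of antisense genes may make up part or all of this rise, as set out below.

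No other leukocyte subunit passed. Itgb2, the β2 chain with which αD pairs, had 8.9, 6.71, 4.43 and 5.78 CPM in the high glucose libraries, against 6.07, 6.21, 5.97 and 4.8 CPM in the low glucose libraries (log2 fold change 0.16 ± 0.21, edgeR adjusted p = 0.614). By FPKM, Itgad over Itgb2 was 1.34 ± 0.511 in high glucose and 0.0487 ± 0.0455 in low glucose. The value listed for Itgad exceeded that of Itgb2 in 3 of the 4 high glucose libraries. Without the strand setting, reads of Itgad and of its antisense genes cannot be told apart. The ratio of αD to β2 transcript is therefore not known. Itgax, the αX chain of dendritic cells and macrophages, averaged 6.46 ± 1.29 CPM in high glucose and 6.69 ± 1.01 CPM in low glucose (log2 fold change -0.05 ± 0.18, edgeR adjusted p = 0.859). Itgal, the αL chain of lymphocytes, averaged 2.85 ± 1.58 CPM in high glucose and 2.45 ± 0.709 CPM in low glucose. Itgam, the αM chain of myeloid cells, averaged 0.877 ± 0.252 CPM in high glucose and 0.631 ± 0.405 CPM in low glucose. Of its 31-base words 68.3% also occur in other genes on either strand, chiefly the annotated read-through Gm49368, so that its value is uncertain. Gm49368 has no row of its own in the deposited table. Itgae, which marks T cells of epithelia, had 7, 3, 5 and 14 counts in the high glucose libraries, against 0, 3, 2 and 5 counts in the low glucose libraries.

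The 18 leukocyte markers were mixed in direction. Among the 17 tested, 6 had log2 fold changes above 0 and 11 below, with a median of -0.09. Their summed level was 264 to 395 CPM in high glucose and 308 to 496 CPM in low glucose, and none of them was at 0 in all libraries. Of the 17 tested, 0 rose and 1 fell, Cd79a of B cells (log2 fold change -1.45, edgeR adjusted p = 0.000365), with 1 higher and 2 lower at an unadjusted p under 0.05 and 2 higher and 4 lower with the replicate block. The macrophage mannose receptor gene Mrc1 had 2.16 ± 0.83 CPM in high glucose and 1.02 ± 0.392 CPM in low glucose, with no overlap (log2 fold change 1.07 ± 0.36, edgeR adjusted p = 0.0541, and 0.00665 with the replicate block). The Fc receptor chain gene Fcer1g was higher in 4 of 4 pairs (log2 fold change 0.39, edgeR adjusted p = 0.312, and 0.0368 with the block). The macrophage gene Lyz2 stood at 102 ± 23.0 FPKM in high glucose and 102 ± 27.3 FPKM in low glucose, and the complement gene C1qa at 91.2 ± 15.1 FPKM in high glucose and 106 ± 24 FPKM in low glucose. The pan-leukocyte gene Ptprc had a log2 fold change of 0.08 (edgeR adjusted p = 0.897). Mrc1 and Fcer1g are the 2 markers higher with the block and were picked after their values had been seen, while 4 were lower with it. The part of leukocytes in the level of Itgad was not tested.

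Reads at the Itgad position are shared ground. Itgad lies on the + strand of chromosome 7 (chr7:128154376-128223816, GRCm38). The genes around it were picked after their values had been seen. Cox6a2, the muscle form of a cytochrome c oxidase subunit, lies within it on the − strand (chr7:128205435-128206387), and 4 of the 5 annotated Itgad transcripts have an exon that overlaps its exons, by 70 bases or 1.55% of the exon bases of Itgad. The antisense transcript 4931431B13Rik shares 388 exon bases with it, 8.6%. With the strand setting not given in the sources used here, reads of Itgad and of its antisense partners cannot be told apart.

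Cox6a2, 4931431B13Rik and a further opposite-strand gene, Gm44850, rose as Itgad did. Cox6a2 had 74.7 ± 17.3 CPM in high glucose and 7.08 ± 1.07 CPM in low glucose (log2 fold change 3.40 ± 0.18, edgeR adjusted p = 2.05e-06). 4931431B13Rik had 11.2 ± 2.77 CPM in high glucose and 0.419 ± 0.341 CPM in low glucose (log2 fold change 4.71 ± 0.40, edgeR adjusted p = 2.62e-05). Gm44850, listed at chr7:128215616-128220788 inside the 1 Itgad transcript that reaches past Cox6a2, had 51.4 ± 13.3 CPM in high glucose and 2.78 ± 0.564 CPM in low glucose (log2 fold change 4.20 ± 0.22, edgeR adjusted p = 1.95e-06). The nearest genes on either side, Itgax and 9130023H24Rik, did not pass, with log2 fold changes of -0.05 and 0.29. Itgad counts were 16.8, 16.1, 13.3 and 17.6% of the Cox6a2 counts in high glucose, against 5.46, 0.87, 11.5 and 3.62% in low glucose. How far any of these reads came from Itgad itself was not tested.

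**Figure D3:**
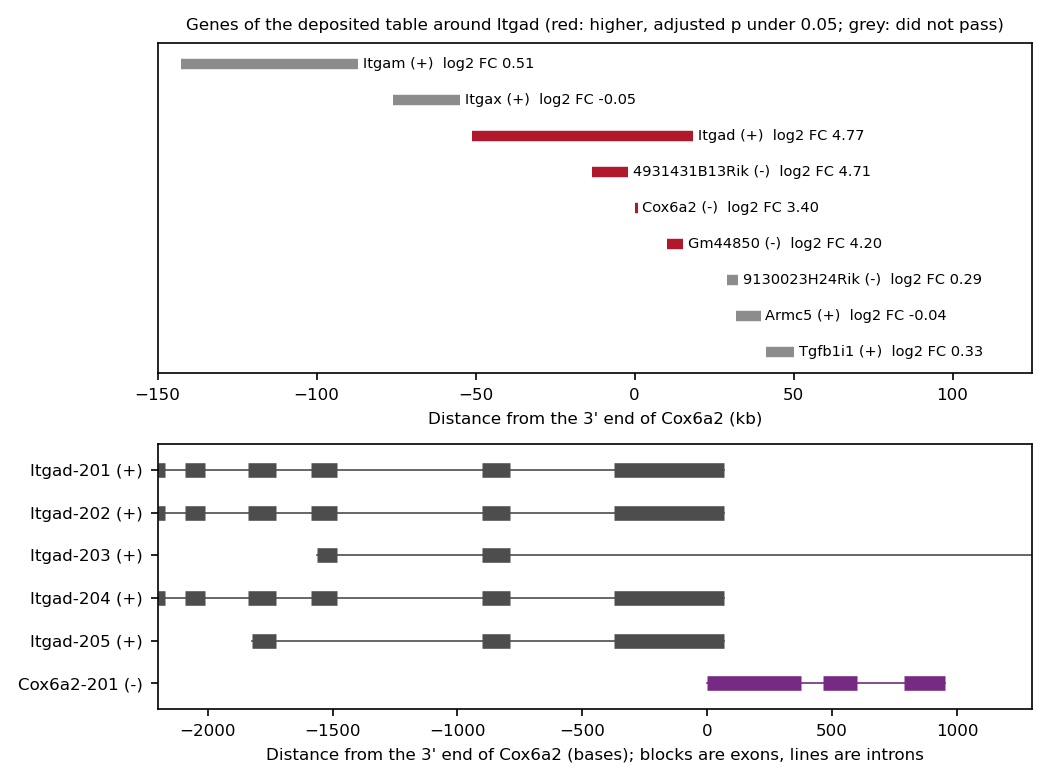
Genes around Itgad by distance from the 3′ end of Cox6a2, with strand and log2 fold change, high over low glucose (top; red passed, grey did not), and exons of the 5 annotated Itgad transcripts and of Cox6a2 around the 3′ end of Cox6a2 (bottom; blocks are exons), where 4 of the 5 have an exon that overlaps Cox6a2. Itgad, 4931431B13Rik, Cox6a2 and Gm44850 rose together, while the genes to both sides did not pass.

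Itgad also shares sequence with its neighbour Itgax. Of the 31-base words of Itgad transcripts, 26.3% occur in other genes on either strand, antisense genes included. The gene sharing most is Itgax, with 512 words. The 2 coding sequences are 69.2% identical and have a longest exact shared run of 188 bases, shown because a read lying inside it fits both genes equally. With 20 flanking bases on each side, the stretch printed spans exons 12 to 14 of Itgad (chr7:128189320-128189809, + strand, introns removed) and exons 11 to 13 of Itgax (chr7:128135592-128136082, + strand, introns removed). The shared run is in capitals and the flanks are in lower case, from the GENCODE M21 transcripts of GRCm38.
Itgad: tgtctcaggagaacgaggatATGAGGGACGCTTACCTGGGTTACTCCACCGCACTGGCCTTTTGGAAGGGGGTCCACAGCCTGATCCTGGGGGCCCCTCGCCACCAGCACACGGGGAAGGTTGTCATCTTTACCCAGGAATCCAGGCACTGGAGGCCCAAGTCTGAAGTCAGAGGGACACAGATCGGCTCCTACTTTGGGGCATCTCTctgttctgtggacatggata
Itgax: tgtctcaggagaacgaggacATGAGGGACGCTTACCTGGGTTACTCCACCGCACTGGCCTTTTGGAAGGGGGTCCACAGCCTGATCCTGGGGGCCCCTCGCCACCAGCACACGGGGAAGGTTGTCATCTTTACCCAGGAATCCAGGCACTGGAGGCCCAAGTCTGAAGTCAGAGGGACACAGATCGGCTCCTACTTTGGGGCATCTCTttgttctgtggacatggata
Reads that fit both genes could be counted for one, for both or for neither, and the setting is not given in the sources used here. The other leukocyte α subunits compared, Itgam and Itgal, were 61.5% and 51.2% identical to Itgad, and their longest shared runs were 16 bases each.

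Among the β subunits Itgb1 rose, Itgb8 fell and 5 did not pass. Itgb8 (chr12:119158022-119238802, − strand), the αV partner that activates latent TGF-β, had 27.1, 26.5, 32.3 and 25.8 CPM in the high glucose libraries, against 37.2, 31.5, 37.7 and 37.6 CPM in the low glucose libraries. High glucose replicate 3 lay just above low glucose replicate 2, and the libraries were otherwise separate. Its fall had a log2 fold change of -0.37 ± 0.09 (1.29-fold, edgeR adjusted p = 0.0159), with an adjusted p of 0.0506 without high glucose replicate 4. Itgb5 had 70.4, 64.6, 69.9 and 63.6 CPM in the high glucose libraries, against 56.1, 79.6, 67.8 and 62.2 CPM in the low glucose libraries (log2 fold change 0.02 ± 0.10, edgeR adjusted p = 0.927). The direction of Itga6 and of Itgb5, both near 0, turned negative with library size alone, and these 2 were among 10 subunits, none of them past the threshold, whose direction turned when 1 library was left out.

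Itgb4, the β chain that joins α6 in the hemidesmosomes of epithelia, varied more by library number than by glucose. It had 20.9, 7.59, 10.2 and 40.6 CPM in the high glucose libraries, against 19.4, 5.73, 6.49 and 31.4 CPM in the low glucose libraries (log2 fold change 0.33 ± 0.60, edgeR adjusted p = 0.732, and -0.29 without high glucose replicate 4). Replicates 1 and 4 were high in both groups, and with the replicate block, which compares libraries of the same number, it passed (edgeR adjusted p = 0.0143, higher in 4 of 4 pairs). Itgb4 shares 7.66% of its exon bases with the antisense gene B230344G16Rik, which had 0 to 4 counts in any library. Itgb3, the αV and αIIb partner, averaged 5.44 ± 1.11 CPM in high glucose and 4.38 ± 1.37 CPM in low glucose. Itgb6, an epithelial αV partner, averaged 1.47 ± 0.546 CPM in high glucose and 1.29 ± 0.354 CPM in low glucose. Itgb7, a β chain of lymphocytes, had 23, 10, 6 and 5 counts in the high glucose libraries, against 10, 10, 2 and 1 counts in the low glucose libraries. Itgb1 made up 70.5 ± 0.802% of the summed β subunit FPKM in high glucose and 67.4 ± 0.425% in low glucose.

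**Figure D4:**
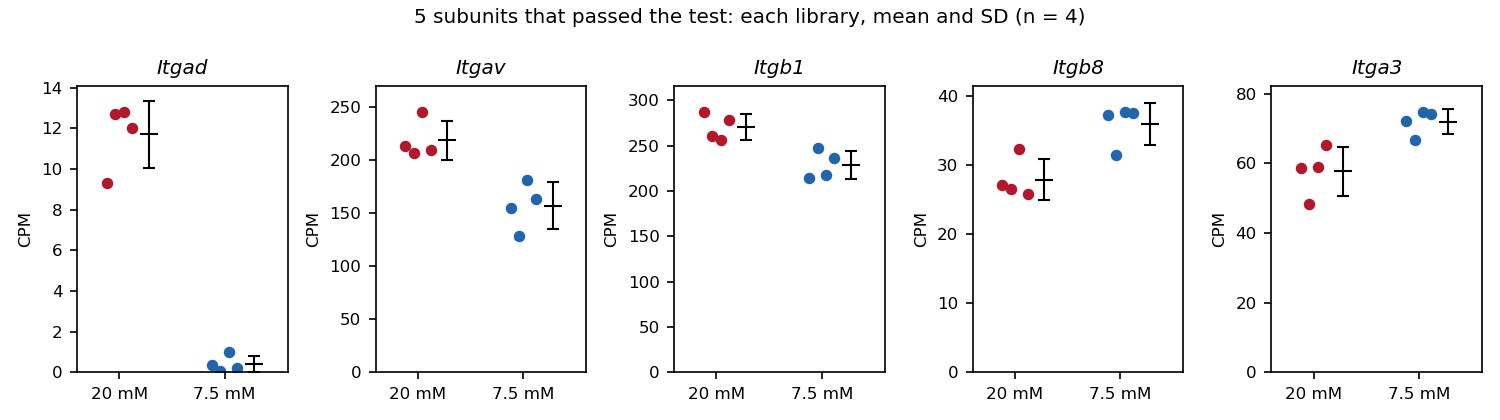
CPM of 5 subunits that passed, in each library (points), with the mean and SD of 4 libraries beside them, high glucose (20 mM) left of low glucose (7.5 mM), and axes from 0. Itgad, whose reads may be those of antisense genes, is near 0 in low glucose. The other 4 differ by 1.18-fold to 1.39-fold, and the groups overlap in Itgb8 alone.

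Of 8 laminin chains tested, 0 passed in edgeR's test in either direction, against 25.0% of all genes tested, with 1 higher and 0 lower at an unadjusted p under 0.05, 0 calls by DESeq2 and by limma-voom, and 1 (12.5%) passing with the replicate block, against 37.4% of all genes. Their median log2 fold change was 0.25, with 7 above 0 and 1 below, beside -0.01 over all genes. Lamc1 did not pass, with 47.5, 31.8, 39.8 and 40.9 CPM in the high glucose libraries, against 35.8, 31.7, 37.9 and 38.6 CPM in the low glucose libraries (log2 fold change 0.15 ± 0.12, edgeR adjusted p = 0.377). Lamc3 had 5, 2, 3 and 7 counts in the high glucose libraries, against 3, 3, 22 and 12 counts in the low glucose libraries.

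Lamb3 and Lama3 encode β and α chains of epithelial laminin. Lamb3 had 10.9, 4.47, 4.43 and 18.1 CPM in the high glucose libraries, against 6.71, 4.45, 3.83 and 11.2 CPM in the low glucose libraries (log2 fold change 0.54 ± 0.48, edgeR adjusted p = 0.456). It passed with the replicate block (adjusted p = 0.0339), and replicates 1 and 4 were high in both groups. Lama3 averaged 1.1 ± 0.358 CPM in high glucose and 0.895 ± 0.438 CPM in low glucose.

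The remaining tested chains, among them those of vascular basement membrane, did not pass, and Lama1 was not tested. Lama5, the α5 chain, had 16.1, 8.89, 15.1 and 27.0 CPM in the high glucose libraries, against 16.9, 7.93, 12.3 and 21.8 CPM in the low glucose libraries (log2 fold change 0.19 ± 0.34, edgeR adjusted p = 0.737). Lama4, the α4 chain of endothelial laminin, had 6.21, 4.52, 6.41 and 5.62 CPM in the high glucose libraries, against 5.42, 3.64, 3.55 and 4.42 CPM in the low glucose libraries (log2 fold change 0.41 ± 0.19, edgeR adjusted p = 0.137). It was higher in 4 of 4 pairs of the same number, and the groups overlapped. Lamb1 had 11.1, 8.37, 7.78 and 8.09 CPM in the high glucose libraries, against 5.72, 9.59, 9.23 and 7.15 CPM in the low glucose libraries. Lamb2, the β chain of mature vessels and the neuromuscular junction, averaged 5.54 ± 2.08 CPM in high glucose and 4.48 ± 1.57 CPM in low glucose. Lama2, the α2 chain of muscle and Schwann cells, averaged 2.47 ± 0.249 CPM in high glucose and 3.02 ± 0.671 CPM in low glucose. Lama1, an early embryonic chain, had 56, 3, 23 and 6 counts in the high glucose libraries, against 2, 8, 13 and 5 counts in the low glucose libraries. The 15 endothelial markers, all tested, gave 0 calls, with 1 higher and 1 lower at an unadjusted p under 0.05, and summed to 54.1 to 69.8 CPM in high glucose and 58.7 to 82.1 CPM in low glucose. The most abundant of them, Esm1 and Esam, had log2 fold changes of -0.28 and -0.10.

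Markers of other cells moved with some of these values. The 20 acinar markers summed to 14400, 5060, 5040 and 26500 CPM in the high glucose libraries, against 11200, 4590, 1800 and 15200 CPM in the low glucose libraries. They were high in replicates 1 and 4 of both groups, where Itgb4, Lamb3 and, in replicate 4, Lama5 were high too. Of the 19 acinar markers tested, 1 rose, the transcription factor Bhlha15, and all 19 had log2 fold changes above 0 (median 0.70), among them the abundant Ctrb1 and Try5 at 0.71 each. With the replicate block 13 acinar and 5 duct markers were higher (68.4% and 45.5% of those tested), against 37.4% of all genes tested that passed in either direction. The duct keratin Krt19 showed the same replicates high, with 27.5, 19.3, 21.4 and 65.3 CPM in the high glucose libraries, against 23.8, 16.1, 14.2 and 44.7 CPM in the low glucose libraries. The 11 duct markers tested summed to 1270 to 1820 CPM in high glucose and 1070 to 1420 CPM in low glucose, with 1 higher (Spp1) and 0 lower, and the abundant keratins Krt8 (log2 fold change 0.43) and Krt18 (log2 fold change 0.42) did not pass. The part of exocrine cells in these subunits was not tested.

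One library stood apart for mesenchymal genes. The 15 fibroblast, stellate and mural markers summed to 1280, 429, 376 and 224 CPM in the high glucose libraries, against 181, 436, 340 and 190 CPM in the low glucose libraries. All 15 had log2 fold changes above 0 (median 0.85), and 0 passed in edgeR's test, with 1 higher at an unadjusted p under 0.05. The most abundant were Vim, with a log2 fold change of 0.39, and Col1a1, the main collagen chain of fibroblasts, at 22.9 ± 22.5 FPKM in high glucose and 9.77 ± 5.12 FPKM in low glucose. That same library, high glucose replicate 1, was the highest of the 8 for 13 of the 36 subunits, namely Itga5, Itga9, Itga11, Itgal, Itgam, Itgb1, Itgb2, Itgb3, Itgb7, Lama1, Lamb1, Lamb2 and Lamc1. The share of all genes highest in this library was not computed, so whether 13 is many is not known. Among them Itgal, Itgam, Itgb2 and Itgb7 are leukocyte subunits. The leukocyte markers summed to 395, 383, 309 and 264 CPM in the high glucose libraries, against 329, 496, 340 and 308 CPM in the low glucose libraries. Without high glucose replicate 1 the log2 fold changes of Itga5, Itga9 and Lamb2 were 0.10, 0.23 and 0.02, and 3 subunits passed in place of 5, namely Itgad, Itgav and Itgb8. The same 3 passed without high glucose replicate 3 and without low glucose replicate 1, 3 or 4. Whether mesenchymal cells account for these values was not tested.

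The remaining lists moved as follows. Of 10 β-cell markers 2 rose and 4 fell, and their most abundant genes, Ins2 (log2 fold change 0.06) and Ins1 (log2 fold change 0.35), did not pass. Of 10 markers of other endocrine cells 1 rose and 0 fell, with log2 fold changes of -0.19 for Gcg and -0.32 for Ppy, and 2 were higher and 1 lower at an unadjusted p under 0.05. Of 10 Schwann and neural markers 0 rose and 1 fell, Ncam1 (log2 fold change -0.51), a cell adhesion gene that islet cells also use, while Mbp had a log2 fold change of -0.01, and at an unadjusted p under 0.05 there were 0 higher and 1 lower. Of the platelet and erythroid markers Pf4 rose (log2 fold change 1.36), and Gp9 was not tested.

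**Figure D5:**
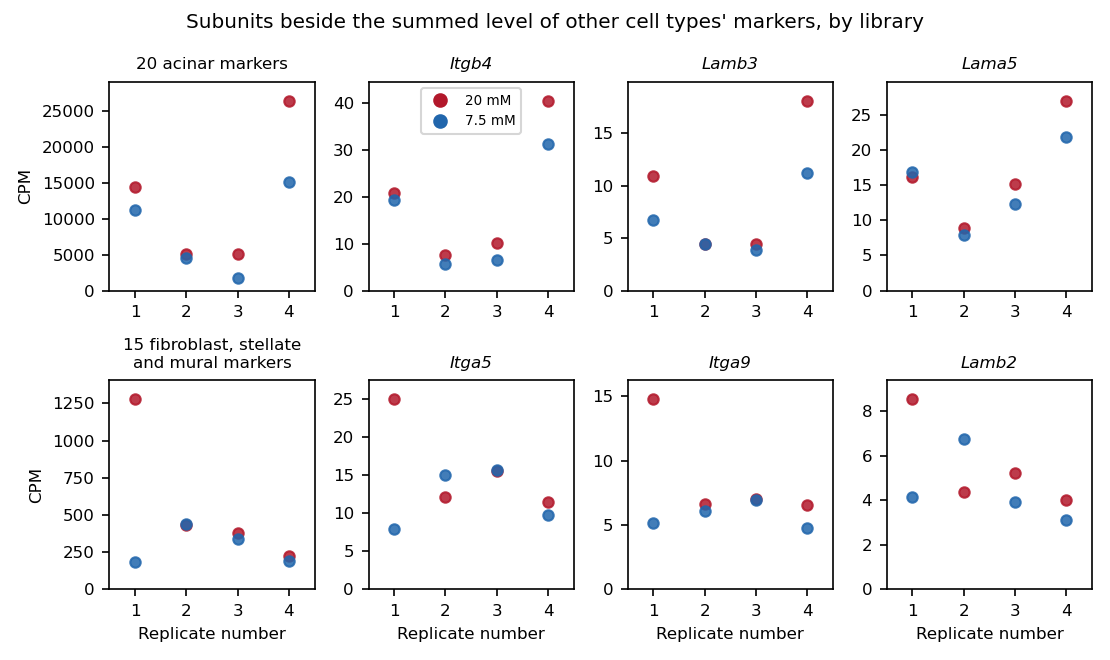
CPM by replicate number for high glucose (red) and low glucose (blue), with summed acinar markers beside Itgb4, Lamb3 and Lama5 (top) and summed fibroblast, stellate and mural markers beside Itga5, Itga9 and Lamb2 (bottom), all axes from 0. Replicates 1 and 4 are high in both groups for the acinar sum, Itgb4 and Lamb3, and high glucose replicate 1 is the highest library of the bottom row in each panel. The subunits shown are a selection of those high in these libraries.

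Genes that act beside these subunits gave a mixed picture. Of 38 adhesion adaptors tested, the proteins that tie integrins to actin and to signalling, 2 rose and 4 fell. This was 15.8% of those tested, against 25.0% of all genes tested, and the median log2 fold change was 0.06. Rap1b, a small GTPase that switches integrins on, rose to 454 ± 37.2 CPM with high glucose, against 259 ± 22.4 CPM with low glucose (log2 fold change 0.81 ± 0.09, edgeR adjusted p = 0.000134). Tns2, a tensin that links β chains to actin, fell to 32.7 ± 1.91 CPM with high glucose, against 60.3 ± 6.86 CPM with low glucose (log2 fold change -0.88 ± 0.09, edgeR adjusted p = 8.26e-05). The kinase Ptk2b also fell (log2 fold change -0.40), and these 3 calls held with each library left out. The adaptor Crk rose (log2 fold change 0.21), and the talin Tln2 (log2 fold change -0.46) and the scaffold Git1 (log2 fold change -0.20) fell, but each lost its call in at least 6 of the 8 fits that left out 1 library, with edgeR adjusted p up to 0.127, 0.0944 and 0.123. Leaving out low glucose replicate 2 kept all 3 calls, leaving out high glucose replicate 2 kept that of Crk, and leaving out high glucose replicate 4 kept that of Tln2. With the replicate block 8 adaptors were higher and 5 lower (34.2%, against 37.4% of all genes).

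Of 14 basement membrane partners of laminin tested, 3 rose and 1 fell (28.6%, against 25.0% of all genes tested). Their median log2 fold change was 0.48. With the replicate block 3 were higher and 2 lower (35.7%, against 37.4% of all genes). Frem2, a matrix protein of the Fraser complex, rose to 12.3 ± 2.14 CPM with high glucose, against 2.18 ± 0.503 CPM with low glucose (log2 fold change 2.5 ± 0.19, edgeR adjusted p = 1.62e-05), and held with each library left out. Its partner Fras1 went the other way, at 25.3 ± 4.84 CPM in high glucose and 43.1 ± 13.6 CPM in low glucose (log2 fold change -0.77 ± 0.23, edgeR adjusted p = 0.0332). Smoc1 (log2 fold change 1.17) and the laminin-binding nidogen Nid1 (log2 fold change 0.73) rose with overlapping groups. Left-out libraries ended the calls of Fras1 in 6 fits (low glucose replicate 2 and high glucose replicate 3 excepted), of Nid1 in 6 (low glucose replicate 2 and high glucose replicate 4 excepted) and of Smoc1 in 4 (high glucose replicates 1 and 4, low glucose replicates 1 and 3), with edgeR adjusted p up to 0.0944, 0.105 and 0.0788. The summed level of these partners was 548 CPM in high glucose replicate 1 and 269 to 289 CPM in the other 3 high glucose libraries, against 249 to 287 CPM in low glucose.

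Of 14 laminin receptors outside the integrin family that were tested, 2 rose and 2 fell (28.6%, against 25.0% of all genes tested). Their median log2 fold change was 0.03. With the replicate block 3 were higher and 3 lower (42.9%, against 37.4% of all genes). The sarcoglycan Sgcd, part of the dystroglycan complex, rose to 3.72 ± 1.61 CPM with high glucose, against 0.791 ± 0.186 CPM with low glucose (log2 fold change 2.24 ± 0.39, edgeR adjusted p = 0.00212). Sdc4, a heparan sulfate proteoglycan of adhesion sites, fell to 46.1 ± 2.57 CPM with high glucose, against 64.0 ± 8.02 CPM with low glucose (log2 fold change -0.47 ± 0.09, edgeR adjusted p = 0.00364). The sarcospan gene Sspn fell (log2 fold change -0.66), and the sarcoglycan Sgcb rose (log2 fold change 0.29). Sgcb kept its call only where low glucose replicate 2 or high glucose replicate 1 was left out (edgeR adjusted p up to 0.0812), and the other 3 kept theirs in all 8 fits. Passing with the block alone were the dystrophin relative Utrn, with 177 ± 38.3 CPM in high glucose and 252 ± 69.6 CPM in low glucose (log2 fold change -0.51, edgeR adjusted p = 0.124, and 5.6e-05 with the block), and the syndecan Sdc1, with 34.9 ± 17 CPM in high glucose and 24.3 ± 10.8 CPM in low glucose (log2 fold change 0.52, edgeR adjusted p = 0.343, and 0.000137 with the block).

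Of 25 other integrin ligands tested, 2 rose and 2 fell (median log2 fold change 0.32), and with the replicate block 3 were higher and 5 lower. Mfge8, a secreted ligand of αV integrins, rose to 26.6 ± 4.18 CPM with high glucose, against 16.8 ± 3.19 CPM with low glucose (log2 fold change 0.66 ± 0.15, edgeR adjusted p = 0.0094). Spp1, which encodes osteopontin and is also among the duct markers, had 244 ± 6.52 CPM in high glucose and 154 ± 56.1 CPM in low glucose (log2 fold change 0.66 ± 0.21, edgeR adjusted p = 0.0407). Igsf8, better known as a partner of tetraspanins than as a ligand, fell to 35.8 ± 2.10 CPM with high glucose, against 55.1 ± 3.85 CPM with low glucose (log2 fold change -0.62 ± 0.07, edgeR adjusted p = 0.00021). The neural matrix protein gene Tnr fell with overlapping groups (log2 fold change -0.67). Spp1 kept its call only without low glucose replicate 2 or 3, and Tnr only without low glucose replicate 2 (edgeR adjusted p up to 0.103 and 0.101), while Mfge8 and Igsf8 kept theirs in all 8 fits.

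Of 10 tetraspanins and other membrane partners, all tested, 3 rose and 0 fell, with 4 higher and 0 lower at an unadjusted p under 0.05 and a median log2 fold change of 0.21. With the replicate block 5 were higher. The tetraspanin partner Igsf8, which fell, is counted among the other ligands above and not here. Cd151, the tetraspanin that binds α3 and α6 integrins most firmly, rose to 54.8 ± 4.32 CPM with high glucose, against 39.6 ± 4.22 CPM with low glucose (log2 fold change 0.47 ± 0.09, edgeR adjusted p = 0.0036). Bsg, which encodes basigin, rose to 793 ± 114 CPM with high glucose, against 505 ± 84.1 CPM with low glucose (log2 fold change 0.65 ± 0.13, edgeR adjusted p = 0.00521). Both held with each library left out. Tspan4 rose (log2 fold change 0.56), but kept its call only where low glucose replicate 2 or high glucose replicate 4 was left out (edgeR adjusted p up to 0.109).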

How the data were processed

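Bulk RNA was sequenced from islets in 2 groups of 4 libraries, and the labels' protocols name the NEBNext Ultra RNA kit. The tools STAR 2.5, HTSeq 2 and DESeq2 and the build mm10 (GRCm38) are named per the submitters' processing notes. Not given in the sources used here are the strand setting, the annotation's release and what was done with reads that fit several places. The deposited table holds, per the file headers, whole-number read counts, unnormalized. It also holds a signal, which the authors made by dividing counts by 1 size factor per library, and the authors' FPKM. The authors' own comparison gives a log2 fold change, a p-value and an adjusted p-value per gene, and by the authors' deposited table there were 3 subunits higher and 2 lower at an adjusted p-value under 0.05.

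Counts were tested with edgeR 4.0.16 (quasi-likelihood test, TMM scaling, filterByExpr with a minimum count of 10 and a minimum total of 15) in R 4.3.3. This left 15442 genes, and p-values were adjusted over all of them by Benjamini-Hochberg. Alternatives were DESeq2 1.42.0, limma-voom 3.58.1, other scalings, no filter, a replicate block and each library left out. The fit was tested on simulated data.

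The subunits and all lists were chosen with earlier results of these data known. Of the 37 subunits 36 were named, and 1 subunit and a marker gene are not reported here and enter no count of subunits or markers. Values in each library were given for those that passed and for the 2 with the highest FPKM of each class. Up to 3 passing genes per direction were named from each list of adhesion genes, and the 2 most abundant of each cell type list. Further subunits were given by library, and Git1, Cd79a, Ptprc, Mrc1, Fcer1g, Utrn, Sdc1, Bhlha15, Krt19 and the genes around Itgad were named, after their values had been seen.

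Both groups carry the replicate numbers 1 to 4, whose meaning the labels leave unsaid. Deviations from the group means correlated by 0.101, 0.449, 0.404 and 0.475 between libraries of the same number. By the rule that all 4 exceed 0.1 the numbers were taken to pair the libraries, which comes from the data and not from the labels. The other combinations reached at most 0.207, between high glucose replicate 4 and low glucose replicate 1. This is above the 0.101 of replicate 1, so the pairing is uncertain there. The main test and the fits that left out 1 library do not use the pairing, and the replicate block does. Within groups no 2 libraries agreed within sampling noise (chi-square per gene 14.3 to 61.6).

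Gene positions and shared exon bases came from GENCODE M21 and shared 31-base words from its transcripts. Promoters were RefSeq's for GRCm38.p6.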

Additional observations from a re-analysis of the deposited data

Results flagged for a closer look

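In groups of 4, a library was singled out where its gap to the nearest of the others, as a share of the group's whole range, exceeded Dixon's 95% critical value, and this held in 8 of 102 groups examined. Chance gives about 1 in 20. High glucose replicate 1 was high for Itga9, at 14.8 CPM where the others had 6.55 to 6.98. It was also high for Itgam, at 1.25 CPM beside 0.728 to 0.801, and for the summed basement membrane partners of laminin, at 548 CPM beside 269 to 289. Low glucose replicate 2 was low for Itgb8, at 31.5 CPM beside 37.2 to 37.7. The same library was high for the summed leukocyte markers, at 496 CPM beside 308 to 340, and for the summed endothelial markers, at 82.1 CPM beside 58.7 to 62.3. Low glucose replicate 3 was high for Itgax, at 8.19 CPM beside 6.05 to 6.37, and low glucose replicate 4 for Itgb6, at 1.82 CPM beside 1.09 to 1.14. No cause was tested for these values.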

How the results depend on the processing

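With the replicate block, 6 subunits were higher in place of 3. Over all genes 2917 were higher in place of 2023, and 2862 were lower in place of 1831. The block also gave 8 adaptors higher (2 without it), 2 basement membrane partners lower (1), 5 other ligands lower (2) and 5 tetraspanins higher (3). Library size alone gave 1 adaptor, 1 laminin receptor and 1 other ligand higher (2 each in the main test) and 4 other ligands lower (2). Without the filter 1 adaptor and 1 laminin receptor were higher. With limma-voom 0 basement membrane partners and 1 other ligand were lower. The causes were not tested. Leaving out 1 library gave 2 to 4 subunits higher and 1 to 3 lower, 1617 to 2656 genes higher and 1382 to 2476 lower. Higher calls then ranged over 1 to 4 adaptors, 1 to 3 basement membrane partners, 1 to 3 laminin receptors, 1 to 3 other ligands and 2 to 4 tetraspanins, and lower calls over 2 to 5 adaptors, 0 to 2 basement membrane partners, 2 to 3 laminin receptors and 1 to 3 other ligands, with 0 tetraspanins lower in each fit. For single subunits, 170 of the other settings' values kept direction and call, 6 gained a call, 2 lost it and 2 turned direction, namely Itga6 to -0.07 and Itgb5 to -0.06 (log2 fold change), both with library size alone. With a library left out 208 kept both, 2 gained a call, 13 lost it and 17 turned direction. These 17 belong to 10 subunits that passed in none of these fits, whose log2 fold changes then ranged from -0.40 to 0.14 for Itga2b, -0.03 to 0.21 for Itga4, -0.08 to 0.12 for Itga6, -0.16 to 0.47 for Itgal, -0.15 to 0.06 for Itgax, -0.04 to 0.31 for Itgb2, -0.29 to 0.90 for Itgb4, -0.06 to 0.11 for Itgb5, -0.07 to 0.40 for Itgb6 and -0.14 to 0.44 for Lama5. Depth limits the 6 untested subunits.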
